A study of Mus musculus with 8 samples.

Results

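The genes of glycolysis, lactate transport and pyruvate entry were followed in the hypothalamus of mice that breathed low oxygen. They are 35 genes, listed by symbol and role, in a list drawn up with earlier results of these data known: 2 glucose transporters, 2 hexokinases, 7 genes of upper glycolysis, 3 PFKFB enzymes, 6 genes of lower glycolysis, 2 lactate dehydrogenases, 4 genes of monocarboxylate transport, 2 pyruvate carrier subunits, 3 genes of pyruvate dehydrogenase and 4 pyruvate dehydrogenase kinases. All 35 had a row among the 55487 genes of the deposited table, and all 35 passed the filter on low counts that left 17047 genes for testing. The hypoxia group was 4 libraries from C57BL/6J mice held at 7% O2 for 2 hours, and the normoxia group was 4 libraries from C57BL/6J mice kept at 21% O2. Both groups shared housing, free access to food and water, and the RNA and library kits, and the labels name no transgene or mutant allele. Age, sex and whether tissue was pooled are not given in the labels used here. Polyadenylated RNA was counted per gene.

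Glycolysis splits glucose into pyruvate in the cytosol and yields ATP without oxygen. Pyruvate then either enters the mitochondrion through the pyruvate carrier and is turned into acetyl-CoA by pyruvate dehydrogenase, or is reduced to lactate, which leaves the cell through monocarboxylate transporters. In many tissues low oxygen stabilises the hypoxia-inducible factor HIF, a transcription factor whose classical targets include glucose transporters, glycolytic enzymes, lactate dehydrogenase A, the lactate exporter MCT4 and a kinase that shuts pyruvate dehydrogenase. In the brain, capillary endothelium and astrocytes take up glucose and astrocytes pass lactate to neurons.

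Total counts ran from 16994473 (normoxia replicate 3) to 21694383 (normoxia replicate 4). Levels are given as CPM, a gene's share of its library's counts after TMM scaling, in the order of replicates 1 to 4, and a gene is called higher or lower in hypoxia where edgeR's quasi-likelihood test gave a Benjamini-Hochberg adjusted p under 0.05 over the 17047 genes. Within groups, pairs of libraries had correlations of log2(CPM + 1) across genes from 0.982 to 0.995. All 11 hypothalamus markers were detected, with summed levels of 664 to 782 CPM in hypoxia and 381 to 802 CPM in normoxia. Normoxia replicate 2 stood apart: its hypothalamus sum was the lowest of the 8, at 381 CPM, and its cortex marker sum was 437 CPM, against 23.0 to 102 CPM in hypoxia and 34.5 to 86.5 CPM in the other normoxia libraries. The only cell type marker called was the mural cell gene Kcnj8, which was higher in hypoxia, while the mural marker sums were 170 to 218 CPM in hypoxia and 171 to 219 CPM in normoxia. The 4 libraries of each group are described as biological replicates in the series' design, so p-values rest on the spread among these 8 samples.

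After 2 hours at 7% O2, 7 of the 35 genes were higher than in normoxia and 0 were lower. The 7 were the glucose transporter Slc2a1, the hexokinase Hk2, the glycolytic activator Pfkfb3, the glycolytic enzyme Gapdh, lactate dehydrogenase A (Ldha), the lactate exporter Slc16a3 and the pyruvate dehydrogenase kinase Pdk1. Of these, Gapdh had uncertain values, since most of its coding transcript also occurs in other annotated genes, as described below. The fold changes of the 7 ran from 1.22 (Pdk1) to 2.71 (Slc16a3). The 7 genes are 20.0% of the 35, where 0.915% of all genes tested were called higher, 1.23% lower and 2.15% in either direction. The list was not independent of these data. The libraries of the groups did not overlap in 12 of the 35 genes, with hypoxia above normoxia in all 12, where 5.69% of all genes tested lay entirely above and 7.75% entirely below. The fold change was positive in 28 of the 35, and the median log2 fold change was 0.08, against -0.01 over all genes tested, of which 48.2% were positive. At an unadjusted p under 0.05, 14 of the 35 were higher and 0 lower, where 7.63% of all genes tested were higher and 11.7% lower at that level. DESeq2 and limma-voom also called 0 of the 35 lower. The lowest log2 fold change of the 35 was -0.14 (Pdp1).

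**Figure D1:**
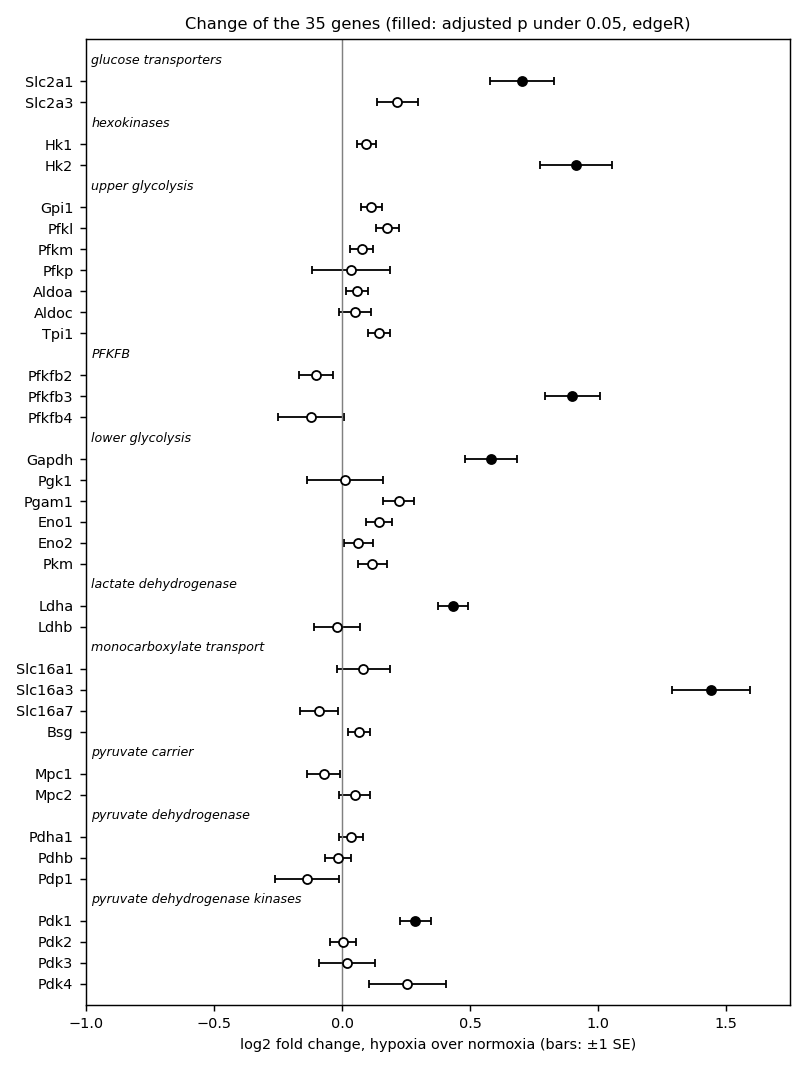
Log2 fold change (hypoxia over normoxia, x axis) of the 35 genes grouped by role, with bars of ±1 standard error from edgeR over 4 libraries a group; filled points had an adjusted p under 0.05. The 7 filled points all lie right of 0, between 0.29 (Pdk1) and 1.44 (Slc16a3), and the open points lie between -0.14 (Pdp1) and 0.25 (Pdk4).

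The calls differed in how much they rested on single libraries. Pfkfb3 and Slc16a3 were called in all 8 refits that left out 1 library each. Ldha was called in 3 of the 8, and Slc2a1, Hk2, Gapdh and Pdk1 in 2 of the 8, the refits that dropped hypoxia replicate 4 or normoxia replicate 2. The number of the 35 genes called higher was 10 without normoxia replicate 2, 7 without hypoxia replicate 4 and 3 without normoxia replicate 1. It was 2 without each of hypoxia replicates 1, 2 and 3 and normoxia replicates 3 and 4. Over all genes tested the same refits called 24 to 329 genes higher. None of the 35 was called lower in any refit. Hypoxia replicate 4 was the lowest hypoxia library in 7 of the 7 called genes and in 21 of the 35.

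**Figure D2:**
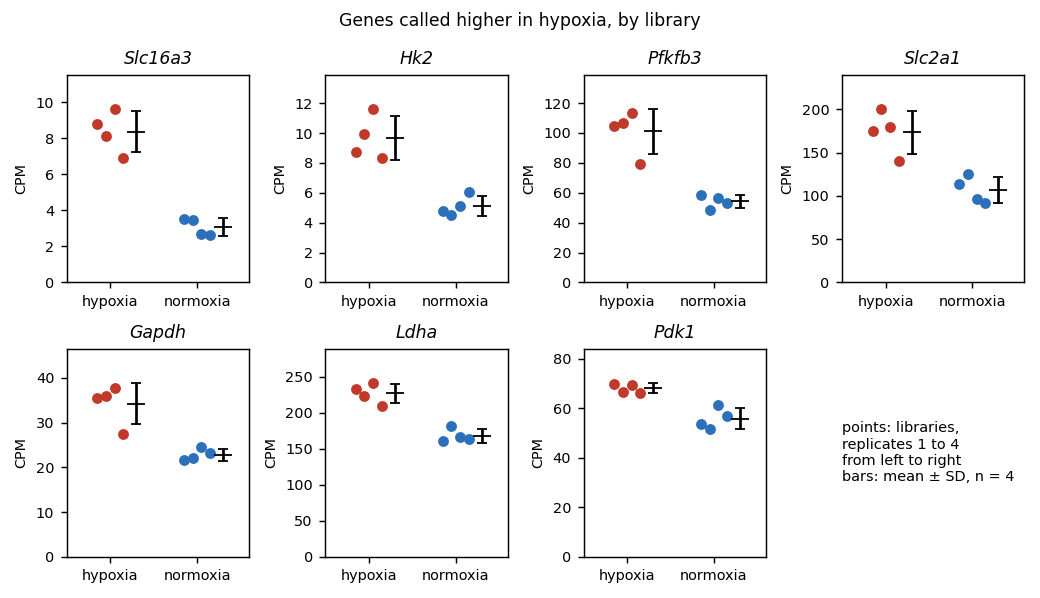
Levels (y axis, TMM-scaled CPM) of the 7 genes called higher, 1 panel a gene, with a point for each library in the order of replicates 1 to 4 and bars for the mean ± SD (n = 4). In every panel all hypoxia libraries lie above all normoxia libraries, and the lowest hypoxia point is replicate 4.

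The upstream sequences of called genes are shown first. The element that HIF binds has a short core, ACGTG or GCGTG, that can be read by eye. RefSeq windows on GRCm38.p6 of 250 bases ending at an annotated start site were searched on both strands for these letters. A gene can have several such sites. The windows printed for Slc16a3, Pfkfb3 and Ldha lie inside the annotated span of the gene. The palindrome CACGTG holds ACGTG on both strands and counts as 2 matches. Printed are the windows of called genes that held at least 2 matches, ACGTG among them: chr11:120948817-120949066 on the plus strand for Slc16a3, chr2:11502091-11502340 on the minus strand for Pfkfb3, chr7:46845554-46845803 on the plus strand for Ldha, chr4:119108495-119108744 on the plus strand for Slc2a1 and chr6:82774455-82774704 on the minus strand for Hk2. Each reads 5′ to 3′ on the strand of its gene, and capitals mark the matches.
Slc16a3: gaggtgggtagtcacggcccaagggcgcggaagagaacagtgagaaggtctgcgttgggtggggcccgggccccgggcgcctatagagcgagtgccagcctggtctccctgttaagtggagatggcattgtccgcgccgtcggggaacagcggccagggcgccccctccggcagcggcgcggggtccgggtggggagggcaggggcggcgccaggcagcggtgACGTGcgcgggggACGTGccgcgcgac
Pfkfb3: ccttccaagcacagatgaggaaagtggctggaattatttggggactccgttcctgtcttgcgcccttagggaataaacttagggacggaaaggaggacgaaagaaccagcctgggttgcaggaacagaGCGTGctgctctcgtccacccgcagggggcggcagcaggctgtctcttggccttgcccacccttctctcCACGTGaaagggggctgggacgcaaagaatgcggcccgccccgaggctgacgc
Ldha: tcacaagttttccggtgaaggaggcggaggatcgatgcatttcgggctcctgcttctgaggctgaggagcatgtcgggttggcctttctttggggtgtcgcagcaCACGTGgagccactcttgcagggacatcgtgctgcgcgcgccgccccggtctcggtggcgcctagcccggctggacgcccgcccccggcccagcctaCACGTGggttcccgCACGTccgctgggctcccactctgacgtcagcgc
Slc2a1: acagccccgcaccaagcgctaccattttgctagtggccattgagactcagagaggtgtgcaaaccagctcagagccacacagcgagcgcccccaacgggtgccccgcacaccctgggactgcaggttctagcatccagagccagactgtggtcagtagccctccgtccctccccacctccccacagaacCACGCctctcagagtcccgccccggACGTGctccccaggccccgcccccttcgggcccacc
Hk2: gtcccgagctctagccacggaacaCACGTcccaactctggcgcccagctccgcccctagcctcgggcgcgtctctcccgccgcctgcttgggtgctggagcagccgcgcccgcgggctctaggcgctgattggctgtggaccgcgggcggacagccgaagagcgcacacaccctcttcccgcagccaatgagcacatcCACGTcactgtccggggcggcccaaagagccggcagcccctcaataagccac

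The Ldha window held 5 matches to ACGTG, those of Slc16a3 and Hk2 held 2 each, that of Pfkfb3 held 2 to ACGTG and 1 to GCGTG, and that of Slc2a1 held 1 of each. Pfkfb3 and Ldha each had a further window, with 1 match. Of the called genes not printed, the Gapdh window held 2 matches to GCGTG and none to ACGTG, and Pdk1 had 1 match to GCGTG in one of its windows and no match in the other. RefSeq windows were matched for 31 of the 35 genes, 48 windows in all. At least 1 match stood in 9 of the 10 windows of called genes (90.0%) and in 29 of the 38 windows of the others (76.3%). It stood in 53.0% of 15531 windows of all genes tested and in 38.6% of 32851 windows of all genes. For ACGTG alone the shares were 60% of windows of called genes, 34.2% of windows of the others and 20.5% of windows of genes tested. For GCGTG alone they were 50%, 57.9% and 42.1% in the same order. These shares were not adjusted for base composition or for several windows per gene. The matches describe letters only, and binding was not measured.

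Glucose enters brain cells through facilitative transporters, and a glucose transporter and a hexokinase were among the called genes. Slc2a1 encodes GLUT1, the transporter of blood-brain barrier endothelium and glia. It was measured at 175, 200.1, 179 and 139.9 CPM in hypoxia, against 114, 125, 96.0 and 92.0 CPM in normoxia. Every hypoxia library lay above every normoxia library, with hypoxia replicate 4 nearest to normoxia replicate 2. The means were 173 ± 24.9 CPM in hypoxia and 107 ± 15.3 CPM in normoxia (SD, n = 4 each), and the log2 fold change was 0.70 ± 0.12 (± SE, here and below) with an adjusted p of 0.0293, which ran from 0.00901 to 0.12 when single libraries were left out. Endothelial markers were present at a summed 228 to 260 CPM in hypoxia and 240 to 279 CPM in normoxia, with 3 of 7 positive, none called and none at 0. Cldn5 (log2 fold change -0.34, adjusted p = 0.114) and Slco1c1 (-0.25, adjusted p = 0.109) were lower in every hypoxia library than in any normoxia library. Over all genes tested, 7.75% lay entirely below. The 3 positive markers were Ly6c1 (0.19, adjusted p = 0.248), Pecam1 and Flt1 (0.07 each), and their groups overlapped. Astrocyte markers summed to 3176 to 3318 CPM in hypoxia and 3079 to 3388 CPM in normoxia. Of those, Gja1 lay entirely below normoxia (-0.12, adjusted p = 0.222). Aldh1l1 lay entirely above (0.10, adjusted p = 0.253), as did 5.69% of all genes tested. In such bulk tissue, fewer cells of a type and less RNA per cell cannot be told apart, and the part of cell composition in the result was not tested. Exons of Slc2a1 overlap 105 bases of Gm12868 on the opposite strand, which averaged 0.0266 CPM in hypoxia and 0.047 CPM in normoxia.

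Slc2a3 encodes GLUT3, the main glucose transporter of neurons. It had 166, 165, 171 and 161 CPM in hypoxia, against 138, 167, 126 and 141 CPM in normoxia. The hypoxia libraries were close together, and normoxia replicate 2 lay within their range. That library also had the highest neuron marker sum, 4953 CPM, against 4183 to 4232 CPM in hypoxia and 3543 to 4090 CPM in the other normoxia libraries. The neuron markers did not move together in it. Rbfox3, Syt1, Gad1 and Slc32a1 were highest there, with Gad1 at 1019 CPM against 439 to 570 CPM elsewhere. Slc17a6 was lowest there, at 114 CPM against 217 to 291 CPM elsewhere, and Snap25 and Gad2 lay within the range of the others. The part of that library's tissue in the Slc2a3 value was not tested. The log2 fold change of Slc2a3 was 0.22 ± 0.08 with an adjusted p of 0.177. Without normoxia replicate 2 the log2 fold change was 0.30 and the adjusted p 0.0144.

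Hexokinases trap glucose in the cell as glucose 6-phosphate. Hk2, the inducible form that is scarce in normal brain, had 8.70, 9.97, 11.6 and 8.34 CPM in hypoxia, against 4.80, 4.52, 5.11 and 6.04 CPM in normoxia. All hypoxia values exceeded all normoxia values, with means of 9.65 ± 1.47 CPM in hypoxia and 5.12 ± 0.661 CPM in normoxia (SD, n = 4 each). The log2 fold change was 0.91 ± 0.14 with an adjusted p of 0.0213, and from 0.0109 to 0.0848 with single libraries left out. Hk1, the constitutive brain hexokinase, had 376, 362, 368 and 362 CPM in hypoxia, against 347, 347, 341 and 341 CPM in normoxia. These groups did not overlap either, but the difference was small, with a log2 fold change of 0.09 ± 0.04 and an adjusted p of 0.205.

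The enzymes from glucose 6-phosphate to the triose phosphates gave no call among 7, although all 7 fold changes were positive, with a median log2 of 0.08. Gpi1, which turns glucose 6-phosphate into fructose 6-phosphate, had 715, 696, 721 and 677 CPM in hypoxia, against 650.3, 648, 630.2 and 667 CPM in normoxia. Pfkl, the liver-type phosphofructokinase subunit, had 154, 149, 151 and 146 CPM in hypoxia, against 131, 142, 128 and 131 CPM in normoxia. Tpi1, the triose phosphate isomerase, had 429, 437, 431 and 426 CPM in hypoxia, against 414, 388, 373 and 387 CPM in normoxia. In these 3 genes the groups did not overlap and hypoxia lay above. The log2 fold changes were 0.11 ± 0.04 for Gpi1 (adjusted p = 0.166), 0.18 ± 0.05 for Pfkl (adjusted p = 0.0816) and 0.14 ± 0.04 for Tpi1 (adjusted p = 0.118). Without normoxia replicate 2 the adjusted p of Pfkl was 0.0229, and DESeq2 gave 0.0141 for Pfkl and 0.027 for Tpi1.

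Pfkm, the muscle-type phosphofructokinase subunit and the highest of the 3 per length, had 422, 436, 406 and 406 CPM in hypoxia, against 408, 389.7, 379.8 and 405 CPM in normoxia. The groups overlapped, and the log2 fold change was 0.08 ± 0.04 (adjusted p = 0.382). Pfkp, the platelet-type subunit, had 329.9, 322, 333 and 326 CPM in hypoxia, against 284, 452, 275 and 270.5 CPM in normoxia. Normoxia replicate 2 was higher than all other libraries, and the other normoxia libraries were lower than all hypoxia libraries. The log2 fold change of Pfkp was 0.03 ± 0.15 with an adjusted p of 0.93. Without normoxia replicate 2, the library with the high cortex marker sum, it was 0.25 with an adjusted p of 0.00962. The part of the dissected tissue in this value was not tested. The aldolases, which split fructose 1,6-bisphosphate, also differed little: Aldoa averaged 1275 ± 12.7 CPM in hypoxia and 1226 ± 55.7 CPM in normoxia (SD, n = 4 each), and Aldoc, the form of astrocytes and some neurons, averaged 905 ± 27.6 CPM in hypoxia and 875 ± 76.1 CPM in normoxia (SD, n = 4 each). Their adjusted p-values were 0.511 and 0.712. A second row under the symbol Aldoa, an annotated gene beside the main one on chromosome 7, was left out of the counts of genes.

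PFKFB enzymes make and remove fructose 2,6-bisphosphate, the strongest activator of phosphofructokinase. Pfkfb3, the member with the highest kinase activity relative to its phosphatase, had 105, 107, 113 and 79.4 CPM in hypoxia, against 58.5, 48.4, 56.7 and 53.2 CPM in normoxia. The groups were far apart, and even hypoxia replicate 4 exceeded the highest normoxia library. The means were 101 ± 14.9 CPM in hypoxia and 54.2 ± 4.46 CPM in normoxia (SD, n = 4 each), and the log2 fold change was 0.90 ± 0.11 with an adjusted p of 0.00818. The call held in every refit that left out 1 library, with adjusted p-values from 0.000562 to 0.0471. Pfkfb2, the heart-type form, averaged 30.8 ± 1.08 CPM in hypoxia and 33.0 ± 2.46 CPM in normoxia (SD, n = 4 each), with a log2 fold change of -0.10 ± 0.07 (adjusted p = 0.435). Pfkfb4, known as the testis-type form, averaged 19.0 ± 1.78 CPM in hypoxia and 20.7 ± 3.62 CPM in normoxia (SD, n = 4 each), with -0.12 ± 0.13 (adjusted p = 0.645). The differences in response between Pfkfb3 and its relatives were not tested.

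In lower glycolysis, 1 of 6 genes was called. Gapdh, glyceraldehyde 3-phosphate dehydrogenase and a common reference gene in expression studies, had 35.4, 36.0, 37.8 and 27.5 CPM in hypoxia, against 21.6, 22.1, 24.6 and 23.2 CPM in normoxia. The hypoxia libraries were all above the normoxia libraries, with replicate 4 below the other hypoxia libraries. The means were 34.2 ± 4.57 CPM in hypoxia and 22.9 ± 1.36 CPM in normoxia (SD, n = 4 each), and the log2 fold change was 0.58 ± 0.10 with an adjusted p of 0.0284, and from 0.00282 to 0.12 with single libraries left out. Per length, Gapdh stood at 8.27 ± 1.11 RPKM in hypoxia and 5.53 ± 0.328 RPKM in normoxia (CPM per kilobase of annotated exon; SD, n = 4 each), which ranked 29th of the 35 in normoxia. Of the 50-base windows of its longest coding transcript, 82.5% also occurred in other annotated genes, against 25.1% over all its annotated transcripts. Among the genes that shared windows were 158 pseudogenes. Those pseudogenes summed to 19.6 ± 1.65 CPM in hypoxia and 20.0 ± 1.61 CPM in normoxia, and 31 of them had 0 counts. How reads that match several places were counted is not given in the sources used here, so the values of Gapdh are uncertain. How much of them comes from the coding transcript was not tested. Its exons overlap 68 bases of Iffo1 on the opposite strand, and Iffo1 averaged 53.6 CPM in hypoxia and 55.5 CPM in normoxia.

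Pgk1, phosphoglycerate kinase, makes the first ATP of the pathway. It had 356, 382, 255 and 259 CPM in hypoxia, against 359.7, 290.3, 263 and 330.3 CPM in normoxia. The spread within groups was wide, and hypoxia replicates 3 and 4 were the lowest of the 8 libraries. The log2 fold change was 0.01 ± 0.15 (adjusted p = 0.977). Other annotated genes held 68.0% of the windows of its longest coding transcript and 53.9% over all its annotated transcripts. Its 4 pseudogenes that share windows summed to 1.6, 2.29, 0.29 and 0.849 CPM in hypoxia, against 2.40, 2.29, 1.67 and 1.73 CPM in normoxia.

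Pgam1, phosphoglycerate mutase, had 113, 106, 99.8 and 98.2 CPM in hypoxia, against 82.2, 90.2, 93.7 and 91.5 CPM in normoxia. Here the groups did not overlap, and the log2 fold change was 0.22 ± 0.06 (adjusted p = 0.0931, and 0.0337 by DESeq2). Eno1, the widely expressed enolase, had 483, 493, 492 and 451 CPM in hypoxia, against 441, 459, 408 and 429 CPM in normoxia. Hypoxia replicate 4 lay below normoxia replicate 2, and the log2 fold change was 0.14 ± 0.05 (adjusted p = 0.168). Of the windows of the longest coding transcript of Eno1, 72.2% were shared, against 25.9% over all its annotated transcripts. Most of the shared windows occurred in Eno1b, a near-identical copy annotated as coding. Eno1b had 47.4, 46.7, 4.73 and 4.19 CPM in hypoxia, against 40.5, 43.6, 37.7 and 39.2 CPM in normoxia. Hypoxia replicates 3 and 4 stood far below the other 6 libraries in this copy. Eno2, the neuronal enolase, averaged 899 ± 20.1 CPM in hypoxia and 861 ± 63.8 CPM in normoxia (SD, n = 4 each), with a log2 fold change of 0.06 ± 0.06 (adjusted p = 0.579).

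Pkm encodes pyruvate kinase, whose M1 and M2 forms arise from a pair of mutually exclusive exons. Counted as a whole it had 1114, 1178, 1037 and 1126 CPM in hypoxia, against 1108, 1002, 1019.9 and 975 CPM in normoxia. The groups overlapped, and the log2 fold change was 0.12 ± 0.06 (adjusted p = 0.283). Inside the Pkm gene, on the same strand, lies an annotated single-exon model of unknown function, Gm49759, at chr9:59672814-59676700 (mm10). It spans 3887 bases and contains both exclusive exons, that of transcript Pkm-202 at chr9:59675029-59675195 and that of Pkm-201 at chr9:59675568-59675734, each of 167 bases. Of its bases, 3120 lie outside every annotated exon of Pkm.

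Gm49759 had 51.3, 51.7, 55.0 and 29.1 CPM in hypoxia, against 19.8, 20.7, 16.9 and 20.4 CPM in normoxia. All hypoxia libraries were above all normoxia libraries, and hypoxia replicate 4 stood well below the other hypoxia libraries. The means were 46.8 ± 11.9 CPM in hypoxia and 19.5 ± 1.72 CPM in normoxia (SD, n = 4 each), and the log2 fold change was 1.26 ± 0.18 with an adjusted p of 0.0174, and from 0.000239 to 0.0804 with single libraries left out. It was called in 2 of those 8 refits, the one that dropped hypoxia replicate 4 and the one that dropped normoxia replicate 2. Among the tested genes whose spans overlap one of the 35, Gm49759 was the only one called. Reads from the exclusive exons fit both genes and the table has 1 value per gene, so the M1 and M2 forms cannot be told apart here, and the source of the reads assigned to Gm49759 was not tested.

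**Figure D3:**
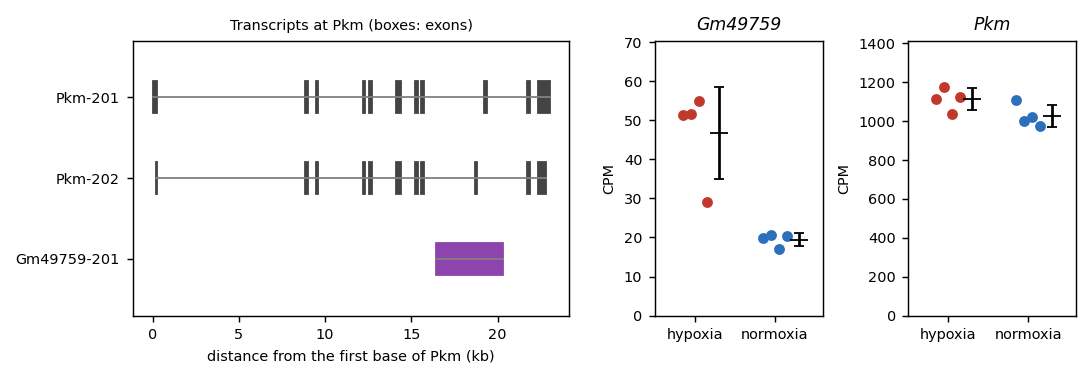
Left, exons (boxes) of transcripts Pkm-201 and Pkm-202 and of Gm49759, by distance from the first base of Pkm in kilobases. Right, TMM-scaled CPM (y axes) of Gm49759 and of Pkm in each library, with bars for the mean ± SD (n = 4): Gm49759 averaged 46.8 CPM in hypoxia and 19.5 CPM in normoxia, whereas the groups overlap in Pkm.

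Lactate dehydrogenase interconverts pyruvate and lactate, and its A subunit was called while its B subunit was not. Ldha, whose enzyme favours lactate formation, had 233, 224, 241 and 209.9 CPM in hypoxia, against 161, 182, 167 and 163 CPM in normoxia. Every hypoxia library was above every normoxia library, with means of 227 ± 13.4 CPM in hypoxia and 168 ± 9.36 CPM in normoxia (SD, n = 4 each). The log2 fold change was 0.43 ± 0.06 with an adjusted p of 0.0133, and from 0.00284 to 0.0713 with single libraries left out; the refits that kept the call were those without hypoxia replicate 4, normoxia replicate 1 and normoxia replicate 2. Other annotated genes held 16.0% of the windows of its longest coding transcript and 8.9% over all its annotated transcripts. The 10 pseudogenes among those genes summed to 1.94 CPM in hypoxia and 1.59 CPM in normoxia. Ldhb, whose enzyme favours lactate oxidation, had 336, 359, 327 and 342 CPM in hypoxia, against 360.4, 404, 289 and 329 CPM in normoxia. The hypoxia values lay within the range of the normoxia values, and the log2 fold change was -0.02 ± 0.09 (adjusted p = 0.93).

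Among the monocarboxylate transporters the largest fold change of the 35 genes fell to Slc16a3, which encodes MCT4, the low-affinity exporter of lactate found in astrocytes. It was counted 182, 153, 199 and 138 times in hypoxia, against 75, 65, 47 and 58 times in normoxia. Scaled, that was 8.80, 8.15, 9.61 and 6.89 CPM in hypoxia, against 3.53, 3.46, 2.70 and 2.63 CPM in normoxia. The lowest hypoxia library was well above the highest normoxia library. The means were 8.36 ± 1.15 CPM in hypoxia and 3.08 ± 0.478 CPM in normoxia (SD, n = 4 each), and the log2 fold change was 1.44 ± 0.15 with an adjusted p of 0.00649. The call held in every refit without 1 library, with adjusted p-values from 0.00249 to 0.0357.

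Slc16a1 encodes MCT1, the lactate transporter of endothelium, oligodendrocytes and astrocytes. It had 51.4, 55.6, 51.7 and 44.2 CPM in hypoxia, against 55.6, 40.4, 50.02 and 45.7 CPM in normoxia, and these ranges overlapped. Oligodendrocyte markers summed to 6775 to 10010 CPM in hypoxia and 6558 to 11620 CPM in normoxia, with 7 of 7 negative and none called, and their part in the value was not tested. The log2 fold change of Slc16a1 was 0.08 ± 0.10 (adjusted p = 0.706). Slc16a7, which encodes the high-affinity neuronal transporter MCT2, averaged 22.8 ± 1.32 CPM in hypoxia and 24.2 ± 1.88 CPM in normoxia (SD, n = 4 each), with a log2 fold change of -0.09 ± 0.07 (adjusted p = 0.541). Bsg, or basigin, the chaperone that brings MCT1 and MCT4 to the cell surface, averaged 393 ± 14.3 CPM in hypoxia and 376 ± 8.98 CPM in normoxia (SD, n = 4 each), with 0.06 ± 0.04 (adjusted p = 0.446).

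The genes that carry pyruvate into the mitochondrion and feed it to the citrate cycle gave no call. The carrier subunit Mpc1 averaged 31.3 ± 0.749 CPM in hypoxia and 32.9 ± 2.6 CPM in normoxia (SD, n = 4 each), with a log2 fold change of -0.07 ± 0.07 and an adjusted p of 0.586. Its partner Mpc2 averaged 44.0 ± 1.88 CPM in hypoxia and 42.6 ± 2.70 CPM in normoxia (SD, n = 4 each), with a log2 fold change of 0.05 ± 0.06 and an adjusted p of 0.704. The pyruvate dehydrogenase subunits had log2 fold changes of 0.03 ± 0.05 for Pdha1 (adjusted p = 0.744) and -0.02 ± 0.05 for Pdhb (adjusted p = 0.886). Pdp1, the phosphatase that switches the enzyme on, had 99.8, 81.1, 88.7 and 90.1 CPM in hypoxia, against 128, 85.8, 87.7 and 94.1 CPM in normoxia. Only normoxia replicate 1 stood above the hypoxia libraries, and the log2 fold change was -0.14 ± 0.12 (adjusted p = 0.584).

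Of the 4 kinases that switch pyruvate dehydrogenase off, 1 was called. Pdk1 had 69.9, 66.4, 69.5 and 66.1 CPM in hypoxia, against 53.5, 51.6, 61.5 and 56.7 CPM in normoxia. The hypoxia libraries were within 4 CPM of each other and all above normoxia, although normoxia replicate 3 came close. The means were 68.0 ± 2.02 CPM in hypoxia and 55.8 ± 4.34 CPM in normoxia (SD, n = 4 each), and the log2 fold change was 0.29 ± 0.06 with an adjusted p of 0.0469, the one nearest to the threshold among the 7, and from 0.0356 to 0.169 with single libraries left out. Pdk4, the kinase known to respond to fasting and glucocorticoids, had 11.3, 12.4, 9.81 and 8.89 CPM in hypoxia, against 8.89, 11.1, 7.24 and 8.31 CPM in normoxia. These ranges overlapped, and the log2 fold change was 0.25 ± 0.15 (adjusted p = 0.387). Pdk2 and Pdk3 had log2 fold changes of 0.00 ± 0.05 and 0.02 ± 0.11, with adjusted p-values of 0.972 and 0.943.

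**Figure D4:**
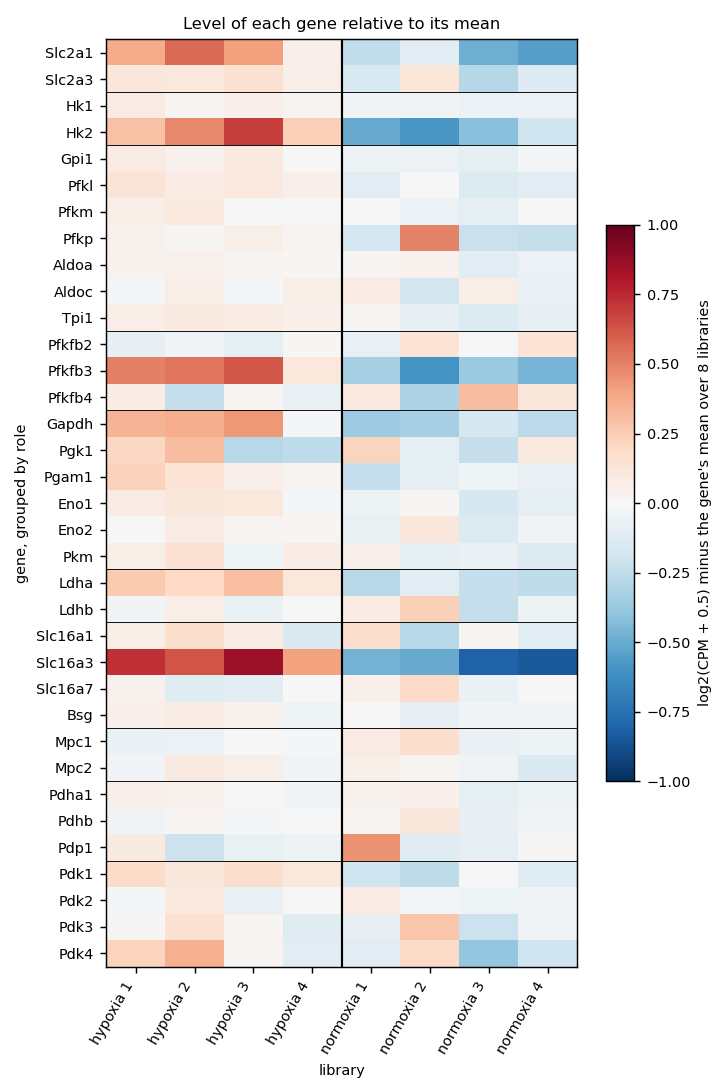
Level of each of the 35 genes (rows, grouped by role) in each library (columns, hypoxia left of normoxia), as log2(CPM + 0.5) minus the mean of the gene over the 8 libraries. The rows of Slc2a1, Hk2, Pfkfb3 and Slc16a3 are red in hypoxia, palest in replicate 4, and blue in normoxia, and the row of Pfkp is reddest in normoxia replicate 2.

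Per length, the 35 genes spanned a wide range, and 4 of the 7 called genes were among the 9 lowest in normoxia. Gapdh, whose values are uncertain, was one of these. Aldoa was the highest, at 438 ± 4.38 RPKM in hypoxia and 421 ± 19.1 RPKM in normoxia. Aldoc followed, at 277 ± 8.46 RPKM in hypoxia and 268 ± 23.3 RPKM in normoxia. Ldhb, Bsg and Pkm came next in normoxia, at 220 ± 31.0, 207 ± 4.95 and 205 ± 11.5 RPKM, and these neighbours did not differ beyond their spread. At the other end, Slc16a3 averaged 1.57 ± 0.216 RPKM in hypoxia and 0.579 ± 0.0899 RPKM in normoxia. Hk2 averaged 1.62 ± 0.247 RPKM in hypoxia and 0.857 ± 0.111 RPKM in normoxia. Slc16a3 was thus the lowest of the 35 in normoxia and had about the level of Hk2 in hypoxia. Ldha and Slc2a1 were in the middle, at 68.6 ± 4.04 and 49.5 ± 7.11 RPKM in hypoxia, against 50.8 ± 2.83 and 30.4 ± 4.38 RPKM in normoxia.

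The genes also differed in how much they varied among libraries of 1 group. The coefficient of variation ran from 1.0% (Aldoa) to 21.1% (Pgk1) in hypoxia, with a median of 4.10%, and from 0.992% (Hk1) to 27.6% (Pfkp) in normoxia, with a median of 7.44%. Most of the genes with calls were among the more variable in hypoxia: Hk2 had 15.3%, Pfkfb3 14.7%, Slc2a1 14.4%, Slc16a3 13.8% and Gapdh 13.4%. Ldha had 5.89%, and Pdk1, at 2.97%, was below the median. In all called genes the lowest hypoxia library was replicate 4. Besides the overlaps given above, exons of Hk1, Gpi1, Pfkm, Pfkp, Aldoa, Tpi1, Pfkfb2, Slc16a7, Mpc1 and Pdha1 overlap a gene on the opposite strand, by 18 bases (Pfkm with Senp1) to 748 bases (Pfkp with Pitrm1), and those of Pfkm and Pfkfb2 also overlap a model on their own strand. Because the strand setting of the counting is not given, the values of these genes are uncertain by the reads of their partners.

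Within families, the called member held a larger mean share of the family's per-length level in hypoxia than in normoxia, given here as a description with no test. These shares restate the values behind the calls and are not a separate observation. Slc16a3 made up 10.5 ± 1.01% of Slc16a1, Slc16a3 and Slc16a7 together in hypoxia and 4.33 ± 0.764% in normoxia. Pfkfb3 made up 61.9 ± 4.12% of the PFKFB family in hypoxia and 44.9 ± 1.93% in normoxia. Ldha held 24.0 ± 1.6% of Ldha and Ldhb together in hypoxia and 18.9 ± 1.85% in normoxia, so Ldhb remained the major subunit transcript in both groups. Slc2a1 held 68.1 ± 2.96% of Slc2a1 and Slc2a3 together in hypoxia and 60.6 ± 2.29% in normoxia. The lengths used join all annotated exons, 3506 bases for Slc2a1 and 7245 for Slc2a3. Their longest coding transcripts have 3260 and 3959 bases. Which family member holds the larger share can thus depend on the length chosen, which was the same in both groups. Hk2 was a small part of Hk1 and Hk2 together, at 3.62 ± 0.540% in hypoxia and 2.08 ± 0.279% in normoxia. The groups did not overlap in these 5 shares. They overlapped in the share of Pdk1 among the kinases, which was 18.1 ± 1.07% in hypoxia and 15.6 ± 1.73% in normoxia.

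**Figure D5:**
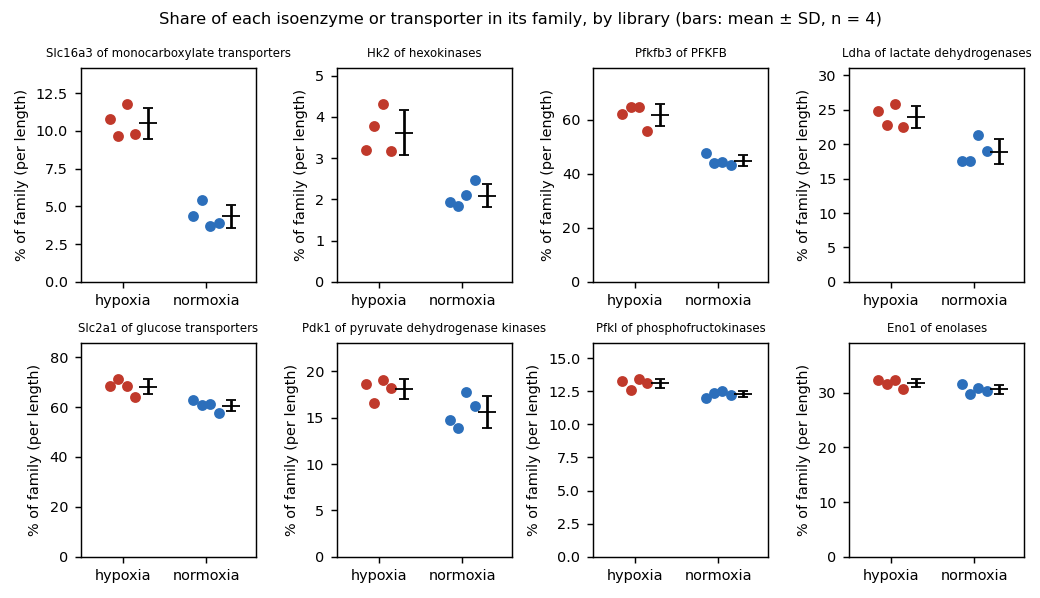
Share of a gene in the summed per-length level of its family (y axis, percent), with a point for each library and bars for the mean ± SD (n = 4). The groups do not overlap for Slc16a3, Hk2, Pfkfb3, Ldha, Slc2a1 and Pfkl, and they overlap for Pdk1 and Eno1.

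Genes of neighbouring pathways were set beside the 35. Of 92 other genes with a row, from 7 lists, 76 were tested, 1 was called higher by edgeR (1.32%, near the 0.915% of all genes tested) and 0 lower. At an unadjusted p under 0.05, 4 were lower (5.26%, below the 11.7% of all genes tested), and DESeq2 called 2 of the 76 lower, where it called 3.72% of all genes lower. The median log2 fold change was 0.05, and 55 of the 76 were positive (72.4%). That share was 80% in the 35 genes and 48.2% over all genes tested. By list it ran from 53.8% (further glycolytic isoenzymes) to 100% (gluconeogenesis, 2 tested), and it was 88.2% in the citrate cycle. A lean to positive fold changes was thus not particular to the 35. Tested were 13 of 17 further glycolytic isoenzymes, 18 of 25 further transporters of glucose and monocarboxylates, 9 of 10 further genes of pyruvate entry and 2 of 6 of gluconeogenesis. The lists of the pentose phosphate pathway (8 genes), the citrate cycle (17 genes) and the NADH shuttles (9 genes) were tested whole. Pgk2, Ldhc and Slc5a2 had 0 counts in every library.

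The gene called was Slc16a6, which encodes a member of the monocarboxylate transporter family (MCT7) described as a carrier of ketone bodies. It had 28.0, 26.9, 26.9 and 21.5 CPM in hypoxia, against 15.7, 18.1, 13.6 and 14.9 CPM in normoxia. All hypoxia libraries exceeded all normoxia libraries, with means of 25.8 ± 2.94 CPM in hypoxia and 15.6 ± 1.92 CPM in normoxia (SD, n = 4 each). Its log2 fold change was 0.73 ± 0.11 with an adjusted p of 0.0213, and from 0.00514 to 0.0934 with single libraries left out. Its call, too, held in 2 of those 8 refits, which dropped hypoxia replicate 4 or normoxia replicate 2.

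In each list without a call, the gene with the smallest p is given. Rpia, the ribose 5-phosphate isomerase of the pentose phosphate pathway, averaged 8.64 ± 0.378 CPM in hypoxia and 10.9 ± 0.590 CPM in normoxia (SD, n = 4 each), and its groups did not overlap. Its log2 fold change was -0.33 ± 0.08 (adjusted p = 0.069). Pdp2, a second pyruvate dehydrogenase phosphatase, averaged 10.4 ± 2.03 CPM in hypoxia and 14.4 ± 1.14 CPM in normoxia (SD, n = 4 each), with a log2 fold change of -0.47 ± 0.13 (adjusted p = 0.0981). Without hypoxia replicate 4 it was -0.61 with an adjusted p of 0.011. Minpp1, a phosphatase that also removes phosphate from 2,3-bisphosphoglycerate, had a log2 fold change of 0.11 ± 0.05 (adjusted p = 0.258). Idh2, the mitochondrial isocitrate dehydrogenase that uses NADP, had -0.13 ± 0.05 (adjusted p = 0.172). Slc25a11, the oxoglutarate carrier of the malate-aspartate shuttle, had 0.10 ± 0.04 (adjusted p = 0.238), and G6pc3, the ubiquitous glucose 6-phosphatase, had 0.05 ± 0.08 (adjusted p = 0.758).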

How the data were processed

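Per the labels' protocols, hypothalamic RNA was extracted with the Aurum total RNA mini kit, and polyadenylated RNA was sequenced after TruSeq Stranded mRNA preparation. The authors deposited raw read counts per Ensembl gene. Per the submitters' processing notes, the tools were featureCounts, SAMtools, HISAT, HISAT2 2.0.4, DESeq2 and Trimmomatic, and the mouse build was mm10. Not given in the sources used here are the strand setting, the annotation release and the treatment of reads that match several places, so genes with overlaps or near-identical copies are uncertain.

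Here edgeR 4.0.16 (R 4.3.3) was fitted to the whole table of counts (filterByExpr with a minimum count of 10 and a minimum total of 15, TMM scaling, group as the only term, quasi-likelihood F test, Benjamini-Hochberg adjustment over 17047 genes, threshold 0.05). CPM are TMM-scaled, and RPKM divide them by the joined length of all exons of a gene in GENCODE M21 (GRCm38, the assembly of mm10). Ranks and shares per length depend on that annotation. Each standard error is the log2 fold change divided by the square root of its F. Copies were exact shared 50-base windows of annotated transcripts. The 35 genes, the other pathway lists and the cell type markers were chosen with earlier results of these data known. Besides the 35, the text names called genes of the other lists, the smallest p in each list without a call, marker sums, and copies or overlapping models of the 35. The test was checked on simulated data in which 200 of 17047 genes changed. It recovered 33% of changes of log2 0.5 and 71% of changes of log2 1, and 4.59% of its 109 calls were false. Genes not called may therefore have changed. The simulated counts were drawn independently for each gene, with dispersions from the same fit, and held no deviations shared across a library. The share of false calls among those reported here is thus not given by the simulation. Alternatives were DESeq2 1.42.0, limma 3.58.1 (voom), other scalings, filters and thresholds, a replicate block, and single libraries left out. Total counts of 16994473 to 21694383 per library limit the precision of genes with few reads most.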

Additional observations from a re-analysis of the deposited data

Results flagged for a closer look

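In each group of 4 libraries, the gap of the highest or lowest library to its nearest neighbour was divided by the range of the group and set against Dixon's 95% critical value. Of 74 such groups 2 passed it (2.70%), where chance flags about 1 in 20. Pfkp in normoxia was the one with the larger ratio, 0.929: normoxia replicate 2 had 452 CPM, and the other normoxia libraries had 284, 275 and 270.5 CPM. The same library had the highest cortex marker sum, 437 CPM. In hypoxia, Gm49759 had a ratio of 0.856: replicate 4 had 29.1 CPM, and the other hypoxia libraries had 51.3, 51.7 and 55.0 CPM. The part of the dissection or of the library in either value was not tested.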

How the results depend on the processing

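The number of the 35 genes called higher (7) was 3 with the replicate block, 2 to 10 with single libraries left out and 11 without normoxia replicate 2 and hypoxia replicate 4 together; it was 6 or 7 under other scalings, filters and tests by edgeR and limma, 10 by DESeq2 and 9 at an adjusted p under 0.1, and none was called lower under any of these settings. The deviations of same-numbered libraries had correlations of 0.084, -0.145, 0.0621 and -0.0178, and those of other pairs ran from -0.192 to 0.174. Of the hypoxia libraries, only replicate 1 correlated best with its own number. None of the normoxia libraries did, although normoxia replicate 3 came close (0.0621, against 0.0623 with hypoxia replicate 2). These few values show no clear pairing by replicate number but cannot exclude one. The block kept Slc2a1, Pfkfb3 and Slc16a3. Over all genes, 156 were called higher, and 383 by DESeq2, 276 by edgeR's likelihood ratio test, 20 with the block, 24 to 329 with single libraries left out, 456 without both named libraries and 384 at an adjusted p under 0.1. Called lower were 210, and 342 with library totals, 634 by DESeq2, 503 by the likelihood ratio test, 1 with the block, 2 to 457 with single libraries left out, 739 without both libraries and 674 at 0.1. Of the other pathway genes, 1 was called higher, and 0 with the block, 0 to 2 with single libraries left out and 2 without both libraries; 0 were called lower, and 2 by DESeq2, 1 by the likelihood ratio test, 0 to 1 with single libraries left out, 1 without both libraries and 2 at 0.1. The median log2 fold change of all genes was -0.00849, and under other scalings it ran from -0.0336 with library totals to 0.0054 with upper-quartile scaling.

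The sign turned in 9 of the named genes, none of them called by the test as reported or in the setting that turned it. With single libraries left out, or normoxia replicate 2 and hypoxia replicate 4 together, log2 fold changes ran from -0.0329 to 0.252 for Pfkp, -0.0974 to 0.0978 for Pgk1, -0.0905 to 0.0685 for Ldhb, -0.0416 to 0.0245 for Pdhb, -0.2006 to 0.0151 for Pdp1, -0.0256 to 0.0371 for Pdk2, -0.0401 to 0.172 for Pdk3 and -0.00805 to 0.104 for G6pc3. For Aldoc they ran from -0.0107 to 0.0921. With library totals they were -0.0144 for Pgk1, -0.0206 for Pdk2 and -0.0052 for Pdk3. Pgk1 was at -0.0048 by limma-voom and -0.0035 with the block. The causes were not tested. Counts of 47 to 75 in normoxia limit the precision for Slc16a3.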
